A study of Mus musculus with 10 samples.

Results

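The genes described here are 36 mouse interferon-stimulated genes, chosen as a list of symbols of well-known interferon targets and found in the count files by their Ensembl identifiers. All 36 were found and all 36 passed the filter on low counts, which left 16669 genes of 41091 identifiers. They were followed in 10 RNA-seq libraries of cultured olfactory epithelium, the tissue of the nose that holds the odor-sensing neurons and the basal cells that replace them. The 3 shCBX8 libraries, labelled replicates 1, 2 and 6, came from cultures given lentivirus with a short hairpin against Cbx8. The 3 shCBX7 libraries, labelled 1, 2 and 5, carried a hairpin against Cbx7, and the 4 shCTR libraries, labelled 1, 2, 5 and 6, a non-targeting scramble hairpin. CBX7 and CBX8 are chromobox proteins, alternative subunits of the Polycomb repressive complex that binds the histone H3 lysine 27 methyl mark.

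All 10 cultures were of adult C57BL6 mice, taken 9 days after methimazole, a drug that destroys the epithelium and starts its regeneration, then grown attached to gelatin in a medium for neural cells that held EGF and FGF2. The labels state no sorting of cells, no age beyond adult, and not how many hairpin sequences stood behind each target. The series' design text gives 3 biological replicates per treatment, against the 4 shCTR libraries found here, and does not say which libraries shared mice or cultures. The p-values therefore measure the spread between these libraries, part of which may be technical.

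Levels are CPM, counts per 1e+06 of the scaled library size. Cbx8 itself had 4.99, 5.14 and 4.71 CPM in shCBX8 1, 2 and 6, against 12.4, 15.9, 10.2 and 10.8 CPM in shCTR 1, 2, 5 and 6, so the groups did not overlap. Cbx7 had 3.64, 8.02 and 13.1 CPM in shCBX7 1, 2 and 5, against 17.7, 16.4, 13.5 and 5.30 CPM in the 4 shCTR libraries, and these ranges overlapped. The libraries held 22763014 to 50463172 gene counts. A repeat-derived model, Gm10800, took 0.737 to 1.51% of the gene counts in the shCBX8 and shCBX7 libraries and 1.96 to 10.4% in the shCTR libraries. Unmapped reads were 5.03 to 7.81% in shCBX8 and shCBX7 and 9.83 to 21.7% in shCTR. The part of either in the results was not tested. Over all genes, shCBX8 1 and 6 differed least of all 12 same-group pairs (chi-square per degree of freedom 28.1, others 111 to 445). Library shCBX8 2 differed from them by 242 and 265, which is within the span of the pairs in the other groups.

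Interferons are secreted alarm proteins. They bind receptors on nearly every cell, and the receptors' Janus kinases phosphorylate STAT proteins. For the antiviral interferons of the alpha and beta families, the STAT2 protein joins a STAT partner and IRF9, and this complex binds the interferon-stimulated response element (ISRE) in the promoters of target genes. Interferon gamma works mainly through STAT dimers at a shorter palindrome, the gamma-activated site (GAS). Many targets are virus sensors or antiviral enzymes, and cells also keep a low tonic expression of them without infection.

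Promoter windows of these genes were searched for exact matches to the ISRE core and the GAS. RefSeq windows of 250 bases before to 50 bases after the transcription start (build GRCm38.p6) were found for 27 of the 36 genes. Not matched were Dhx58, Mx1, Mx2, Oas2, Parp14, Parp9, Rtp4, Usp18 and Zbp1. The ISRE core, GAAA followed by any 2 bases and a second GAAA, was searched on both strands and was present in 14 of the 27 (51.9%), against 3.99% of 27025 genes with a window. The GAS palindrome TTCNNNGAA, which reads the same on both strands, was present in 8 of the 27 (29.6%), against 9.55%. The 10-letter and 9-letter motifs were allowed to overlap each other. A match describes the letters in a window and is no measurement of binding. The 4 windows below are of Irf1 and Gbp2, called in shCBX8 against shCTR, and of Isg15 and Ifit1, not called with all libraries. They run 5′ to 3′ on the gene's strand. ISRE matches are in capitals for Isg15, Ifit1 and Gbp2, and the GAS match is in capitals for Irf1.
Isg15: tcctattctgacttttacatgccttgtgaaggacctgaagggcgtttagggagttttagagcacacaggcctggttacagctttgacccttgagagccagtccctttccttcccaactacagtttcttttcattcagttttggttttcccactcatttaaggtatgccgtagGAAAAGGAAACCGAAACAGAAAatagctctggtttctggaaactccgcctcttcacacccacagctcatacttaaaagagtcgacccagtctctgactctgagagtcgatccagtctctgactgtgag
Ifit1: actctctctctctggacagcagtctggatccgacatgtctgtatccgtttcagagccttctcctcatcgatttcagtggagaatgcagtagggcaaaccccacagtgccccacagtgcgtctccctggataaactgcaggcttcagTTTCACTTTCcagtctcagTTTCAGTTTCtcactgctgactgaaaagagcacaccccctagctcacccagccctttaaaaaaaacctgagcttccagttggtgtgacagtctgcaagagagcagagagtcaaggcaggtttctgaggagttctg
Gbp2: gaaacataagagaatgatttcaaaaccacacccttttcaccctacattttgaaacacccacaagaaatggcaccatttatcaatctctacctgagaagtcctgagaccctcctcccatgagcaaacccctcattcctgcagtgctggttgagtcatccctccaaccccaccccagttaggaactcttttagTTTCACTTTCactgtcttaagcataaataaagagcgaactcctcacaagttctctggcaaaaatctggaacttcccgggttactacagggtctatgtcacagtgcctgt
Irf1: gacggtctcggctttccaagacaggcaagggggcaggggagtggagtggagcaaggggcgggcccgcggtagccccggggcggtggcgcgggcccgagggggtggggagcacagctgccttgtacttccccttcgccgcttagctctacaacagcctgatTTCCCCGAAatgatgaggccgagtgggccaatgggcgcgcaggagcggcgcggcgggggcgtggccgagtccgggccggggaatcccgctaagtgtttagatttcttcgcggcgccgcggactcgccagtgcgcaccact
The Isg15 window lies at chr4:156200769-156201068 on the minus strand and holds 3 overlapping ISRE matches between bases -78 and -57 from the start. The Ifit1 window, chr19:34640639-34640938 on the plus strand, holds 2 matches on the opposite strand, at -104 to -95 and at -85 to -76. In the Gbp2 window, chr3:142620413-142620712 on the plus strand, the 1 match lies on the opposite strand at -59 to -50. Irf1 has no ISRE core match in its window at chr11:53769764-53770063 on the plus strand and has 1 GAS match at -90 to -82. A second Irf1 window further downstream held neither motif.

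The 36 genes were expressed in the control cultures over a wide range of levels. Per kilobase of exon, Ifitm3, which blocks virus entry at endosomes, averaged 915 CPM per kilobase in shCTR, the highest of the 36. Bst2 (tetherin, which holds budding virus at the cell surface) followed with 214, then Ifit1 with 81.8, Isg15 with 76.8 and Ifit3 with 66.1 CPM per kilobase. The lowest was Oas3, a 2'-5' oligoadenylate synthetase, at 0.319 CPM per kilobase and 26 to 381 counts per library. Ifit1, Isg15 and Ifit3 were neighbours in this order whose ranges over the shCTR libraries overlapped, and so did Bst2 and Ifit1. Some levels are uncertain because reads that map to several places were left out of gene counts: Ifit1 and Ifit3 have near copies beside them, as do Oas1a, Oasl1, Oasl2, Gbp2 and Gbp3. Irf9, Parp14 and Rtp4 share 123, 110 and 296 exon bases with another gene on the same strand. Mx2 is annotated as a polymorphic pseudogene.

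The libraries of the shCBX8 group disagreed on these genes. Libraries shCBX8 1 and 6 lay below every shCTR library for most of them, whereas shCBX8 2 lay within or above the shCTR range for all but Irf1 and Ifit2. In shCBX8 1, 31 of 36 genes were below the lowest shCTR library, against 33.2% of all genes tested, and none was above the highest. In shCBX8 6 it was 33 of 36, against 34.2% of all genes, again with none above. In shCBX8 2 those 2 genes were below (27.7% of all genes), while 16 were above the highest shCTR library (30.5%). Those 16 included Irf7, Isg15, Ifit3, Zbp1, Oas2 and Oas3. Among the shCBX7 libraries, 3, 1 and 3 genes were below the shCTR range in libraries 1, 2 and 5 (25.6, 19.3 and 16.0% of all genes), and 0, 8 and 1 were above it (23.4, 17.5 and 16.8%).

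**Figure D1:**
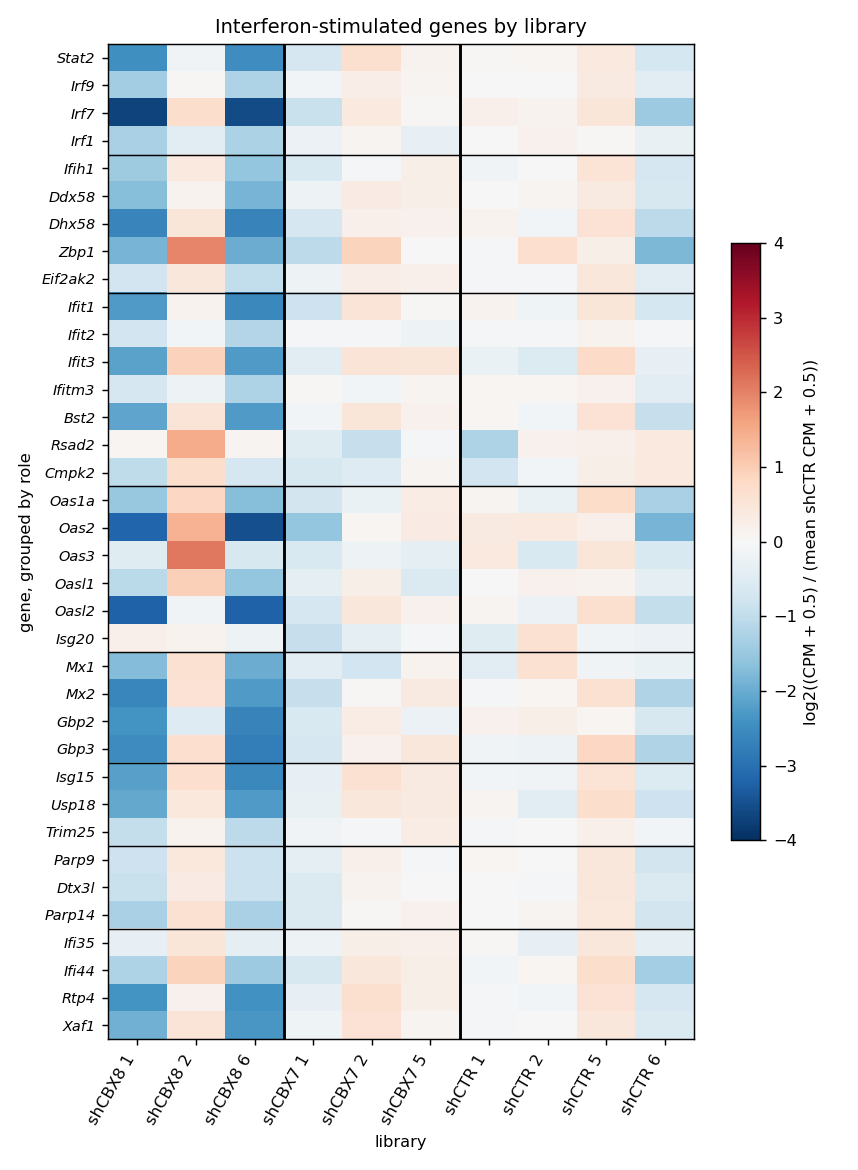
Level of each of the 36 genes (vertical, grouped by role) in each library (horizontal), as log2 of CPM + 0.5 over the mean shCTR CPM + 0.5. Blue marks a level below the shCTR mean and red a level above it. The columns of shCBX8 1 and shCBX8 6 hold 31 and 33 genes below the lowest shCTR library, while the column of shCBX8 2 holds 16 genes above the highest.

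Library shCBX8 2 was the highest of its group for 35 of the 36 genes, against 39.6% of all genes, and the exception was Isg20. The other groups had an uneven library too. Among the controls, shCTR 5 was highest for 27 genes (16.4% of all genes) and shCTR 6 lowest for 30 (31.8%), and shCBX7 1 was lowest of its group for 30 (33.3%). The median log2 range between the highest and lowest library, with 0.5 CPM added, was 2.43 in shCBX8, 0.83 in shCBX7 and 1.16 in shCTR for the 36 genes. Over all genes it was 0.40 in shCBX8, 0.44 in shCBX7 and 0.61 in shCTR. Summed over the 36 genes, the level was 1356, 4415 and 1158 CPM in shCBX8 1, 2 and 6, and 2811, 4229 and 3931 CPM in shCBX7 1, 2 and 5. The sum was 3577, 3491, 4772 and 2314 CPM in shCTR 1, 2, 5 and 6.

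**Figure D2:**
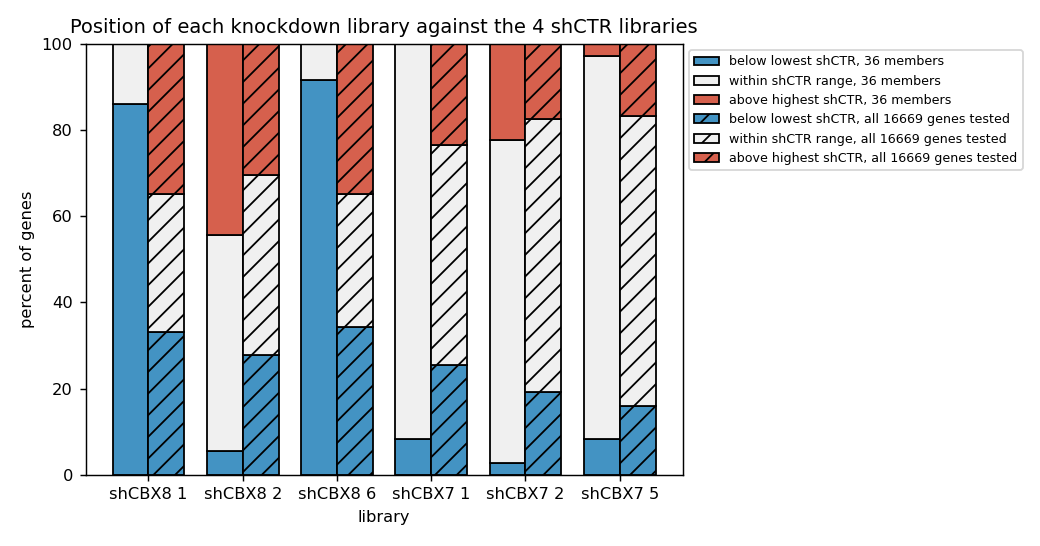
Percent of genes (vertical, 0 to 100) below, within or above the range of the 4 shCTR libraries, in each shCBX8 or shCBX7 library (horizontal). The 36 genes are plain bars and all 16669 genes tested are hatched bars. Plain bars of shCBX8 1 and 6 are mostly below the range, with 31 and 33 genes, and that of shCBX8 2 has 2 genes below and 16 above.

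Within shCBX8, fibroblast and epithelial markers differed along the same split. The summed level of 14 fibroblast markers was 1315, 5471 and 1055 CPM in shCBX8 1, 2 and 6, 10540, 24479 and 12872 CPM in shCBX7 1, 2 and 5, and 15412, 40848, 11023 and 11623 CPM in shCTR 1, 2, 5 and 6. All 14 passed the low-count filter. The sum of 8 epithelial markers ran the other way in shCBX8, at 10422, 4495 and 12236 CPM, with 720, 107 and 2191 CPM in shCBX7 and 1206, 160, 1156 and 2006 CPM in shCTR. Thus shCBX8 2, with the high interferon-stimulated genes, held more fibroblast and less epithelial marker RNA than shCBX8 1 and 6. In shCBX7, library 2 had the highest sum over the 36 genes and the highest fibroblast sum, and library 1 the lowest of both. The epithelial sum in shCBX7 was lowest in library 2 and highest in library 5. In the controls the order differed. There shCTR 5, with the highest sum over the 36 genes, had the lowest fibroblast sum of the 4. The highest fibroblast sum was in shCTR 2, which lay below shCTR 1 and 5 over the 36 genes. The part of cell makeup in the results was not tested. In bulk RNA, fewer cells of a type and less RNA per cell cannot be told apart. The 14 macrophage and immune markers summed to 21.4, 11.0 and 33.0 CPM in shCBX8 1, 2 and 6, lowest in library 2. Their sum was 4.57 to 34.6 CPM in shCBX7 and 6.81 to 16.5 CPM in shCTR. Of these markers, C1qa, C1qb, Cd52 and Cx3cr1 did not pass the filter. Endothelial markers were level in shCBX8, with sums of 22.1, 22.8 and 22.9 CPM in libraries 1, 2 and 6. Of 8 olfactory neuron markers, 7 passed the filter and the olfactory channel gene Cnga2 did not, and their sum was 25.8 to 91.9 CPM in shCBX8, 67.5 to 160 CPM in shCBX7 and 65.2 to 125 CPM in shCTR. All 6 horizontal basal cell markers passed, with sums of 1052 to 1188 CPM in shCBX8, 266 to 846 CPM in shCBX7 and 314 to 1053 CPM in shCTR.

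The transcription factors that drive the response showed the same split within shCBX8. Stat2, the STAT partner in the ISRE-binding complex, had 23.7, 118 and 23.2 CPM in shCBX8 1, 2 and 6, 81.4, 203 and 143 CPM in shCBX7 1, 2 and 5, and 134, 138, 172 and 79.6 CPM in shCTR 1, 2, 5 and 6. Irf9, its DNA-binding subunit, had 38.2, 104 and 42.8 CPM in shCBX8, 93, 121 and 108 CPM in shCBX7 and 99.8, 99.4, 129 and 74.3 CPM in shCTR, in the same order of libraries. For both, shCBX8 1 and 6 were below all other libraries and shCBX8 2 was inside the shCTR range. Irf7, which amplifies interferon production and is itself induced by interferon, spread furthest of the 4 factors, with 8.80, 196 and 9.52 CPM in shCBX8, 64.3, 158 and 124 CPM in shCBX7 and 137, 131, 168 and 43.1 CPM in shCTR. Its highest and lowest libraries of all 10 were both shCBX8. Irf1, a factor induced most strongly by interferon gamma, had 33.4, 62.1 and 34.4 CPM in shCBX8, 70.4, 89.8 and 65.6 CPM in shCBX7 and 84.3, 93.1, 86.2 and 66.9 CPM in shCTR. Here all 3 shCBX8 libraries were below all others.

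In shCBX8 against shCTR, 2 of the 36 genes passed the test, both lower, and none rose (edgeR's quasi-likelihood test, Benjamini-Hochberg adjusted p under 0.05 over all genes). Of all genes tested, 15.9% fell and 17.0% rose, or 11.0% and 22.6% when libraries were scaled by library size alone. The count of 2 in 36 is thus no more than the background. Irf1 fell, with 43.3 ± 16.3 CPM in shCBX8 and 82.6 ± 11.2 CPM in shCTR (SD, n = 3 and 4), a log2 fold change of -0.93 (SE 0.24, edgeR adjusted p = 0.0175). Gbp2, a guanylate-binding GTPase that attacks the vacuoles of intracellular pathogens, fell by 1.54 on the log2 scale (SE 0.52, edgeR adjusted p = 0.0468). It had 21.5, 78.8 and 17.4 CPM in shCBX8 1, 2 and 6, 74.8, 140.4 and 95.7 CPM in shCBX7 1, 2 and 5, and 129, 133, 119.6 and 72.7 CPM in shCTR 1, 2, 5 and 6. The Gbp2 value of shCBX8 2 lay inside the shCTR range. DESeq2 called 4 of the 36 lower (20.5% of all genes), adding Ifit2 and Ifitm3. With the replicate number as a block in the fit, 5 of the 36 fell (17.8% of all genes), adding Stat2 (adjusted p = 0.0237), Ifitm3 (0.0300) and Ifit2 (0.0496). The share of the 36 called was again no more than the background. The call of Irf1 ended without shCBX8 1 (adjusted p = 0.0769) and without shCBX8 6 (0.0787), and also without shCTR 1 and 2 together (0.0880). That of Gbp2 ended in 12 of 22 alternative settings, among them without shCBX8 1 or 6 (0.157 and 0.141), without shCBX7 1 or 5, and without shCTR 1, 2 or 5 (0.0550 to 0.0824).

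Direction was shared more widely than significance. Of the 36 genes, 32 had a log2 fold change below 0 in shCBX8 against shCTR, with a median of -0.58, against -0.01 over all genes, and a range from -1.54 to 1.06. The 4 above 0 were Zbp1, Rsad2, Oas3 and Isg20. At an unadjusted p under 0.05, 4 of the 36 passed, against 45.5% of all genes. Stat2 had a log2 fold change of -1.25 (95% interval -2.60 to 0.09, adjusted p = 0.133, or 0.0237 with the replicate block). For Irf9 it was -0.71 (-1.47 to 0.06, adjusted p = 0.134) and for Irf7 -0.75 (-3.0 to 1.50, adjusted p = 0.589). These intervals are wide: the median half-width of the 95% interval was 1.38 for the 36 genes and 0.61 for all genes. The groups did not overlap for Irf1 and Ifit2 alone (19.5% of all genes lay wholly below shCTR, and 22.9%, but none of the 36, wholly above).

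How many of the genes differed from control depended on which shCBX8 library was left out. Without shCBX8 2, 28 of the 36 genes fell against shCTR, where 18.4% of 17405 genes fell, and the median log2 fold change was -1.72. That library was the highest of its group for 35 of these same 36 genes. Leaving it out therefore lowers the shCBX8 level and its spread by construction, and the 28 calls are no separate support. Without shCBX8 1, none of the 36 was called (5.94% of all genes fell), and without shCBX8 6 none was (6.09%). In these fits 26 and 25 of the 36 had a log2 fold change below 0. Without shCBX8 2, the 28 ran from -3.75 for Oas2 to -0.88 for Eif2ak2 and Dtx3l on the log2 scale. Between them were Irf7 at -3.71, Oasl2 at -3.29, Stat2 at -2.48 and Isg15 at -2.41. The 8 not called in that fit were Zbp1, Rsad2, Cmpk2, Oas3, Isg20, Parp9, Ifi35 and Ifi44.

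**Figure D3:**
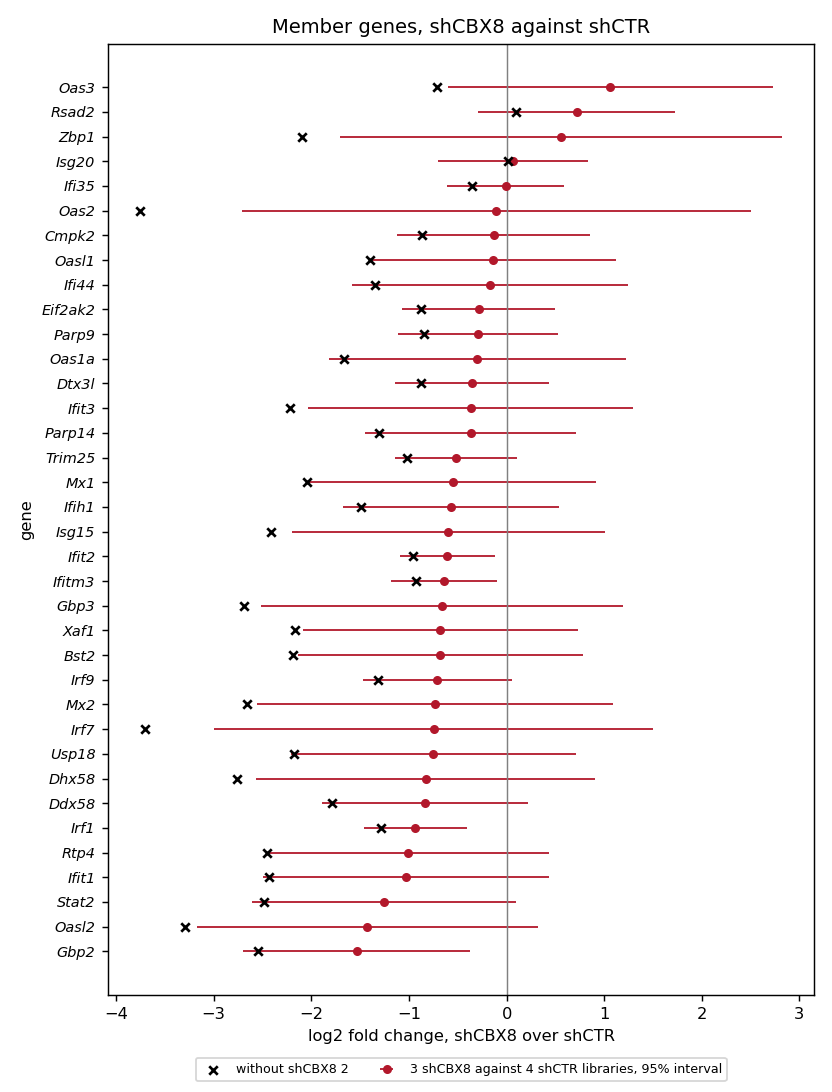
Log2 fold change (horizontal) of each of the 36 genes (vertical) in shCBX8 over shCTR, with 95% intervals from 3 shCBX8 and 4 shCTR libraries (red points and lines), and the same value without shCBX8 2 (black crosses). Red points have a median of -0.58 and crosses a median of -1.72. The library left out for the crosses was the highest of its group for 35 of the 36 genes.

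Among the effectors, the IFIT proteins bind viral RNA and block its translation. Ifit1 had 45, 239 and 35.7 CPM in shCBX8 1, 2 and 6, 122, 314 and 227 CPM in shCBX7 1, 2 and 5, and 238, 193, 306 and 133 CPM in shCTR 1, 2, 5 and 6. Ifit3, a partner of the IFIT complex, had 25.7, 219.5 and 23.7 CPM in shCBX8, 86.7, 166 and 163 CPM in shCBX7 and 96.3, 78.2, 196 and 91.2 CPM in shCTR. Both were lowest in shCBX8 1 and 6, and shCBX8 2 held the highest Ifit3 of all 10 libraries. Ifit2 varied less, at 35.2, 55.7 and 26.4 CPM in shCBX8, 56.7, 56.6 and 51.1 CPM in shCBX7 and 56.4, 57.9, 65.8 and 58.1 CPM in shCTR, and missed the threshold (log2 fold change -0.61 against shCTR, adjusted p = 0.0558), which it just passed with the replicate block (0.0496). Ifitm3 had 389.7, 542 and 263 CPM in shCBX8, 647, 579 and 675 CPM in shCBX7 and 651, 660.4, 703 and 467 CPM in shCTR. Its shCBX8 libraries were all below the shCBX7 libraries and overlapped the shCTR libraries. Bst2 had 44.9, 278 and 40.2 CPM in shCBX8, 179.7, 268 and 217 CPM in shCBX7 and 202, 179, 291 and 101 CPM in shCTR.

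The order of libraries was different for Rsad2. This gene, which encodes viperin, an enzyme that makes a chain-terminating nucleotide, had 31.1, 83 and 31.9 CPM in shCBX8 1, 2 and 6, 20.9, 15.5 and 27.7 CPM in shCBX7 1, 2 and 5, and 12.3, 33.2, 33.7 and 38.9 CPM in shCTR 1, 2, 5 and 6. The low shCBX8 libraries were inside the shCTR range for this gene, and all 3 were above the shCBX7 libraries (25.6% of all genes lay wholly above). Its log2 fold change in shCBX8 was 0.72 against shCTR (adjusted p = 0.238) and 1.19 against shCBX7 (adjusted p = 0.0947), neither past the threshold. Cmpk2, the neighbouring nucleotide kinase gene that supplies viperin's substrate, had 13.7, 46.6 and 17.5 CPM in shCBX8, 18.1, 19.8 and 30.8 CPM in shCBX7 and 16.4, 26, 33.7 and 37.4 CPM in shCTR. Rsad2 and Cmpk2 lie next to each other on chromosome 12 in GENCODE M21 (GRCm38), at chr12:26442746-26456452 and chr12:26469204-26479837.

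The 2'-5' oligoadenylate synthetases make the messenger that switches on RNase L, and 1 of them, Oas2, held the widest spread of the 36 within shCBX8. Oas2 had 1.53, 46.7 and 1.07 CPM in shCBX8 1, 2 and 6, a ratio of 43.4 between the highest and lowest library, 5.69, 18.7 and 22.4 CPM in shCBX7 1, 2 and 5, and 22.6, 23.2, 20.2 and 4.46 CPM in shCTR 1, 2, 5 and 6. Oasl2, a catalytic member of the mouse family, had 13.8, 123 and 13.7 CPM in shCBX8, 85, 184 and 150.4 CPM in shCBX7 and 144, 115, 209.9 and 69.9 CPM in shCTR. Oas3, the least expressed gene, had 1.49, 11.5 and 1.27 CPM in shCBX8, 1.31, 1.90 and 1.66 CPM in shCBX7 and 3.09, 1.30, 3.35 and 1.30 CPM in shCTR. For Oas2 and Oas3, shCBX8 2 was above every other library, while for Oasl2 it was inside the shCTR range. Isg20, a 3'-5' exonuclease, was the flattest of the 36 in shCBX8, with 4.88, 4.72 and 3.59 CPM there, 2.0, 3.18 and 4.04 CPM in shCBX7 and 2.89, 6.66, 3.77 and 3.54 CPM in shCTR. None of these 6 genes (the 5 synthetase genes and Isg20) was called in shCBX8, with Oas1a and Oasl1 the others.

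Sensors of foreign nucleic acid were also lowest or near lowest in shCBX8 1 and 6. Ddx58 (RIG-I), which detects viral RNA ends, had 63.2, 227 and 56.8 CPM in shCBX8 1, 2 and 6, 179, 259 and 244 CPM in shCBX7 1, 2 and 5, and 208, 223, 265 and 133 CPM in shCTR 1, 2, 5 and 6. Ifih1 (MDA5), which detects long double-stranded RNA, had 29.1, 102 and 26.2 CPM in shCBX8, 50.6, 73.9 and 91.3 CPM in shCBX7 and 70.7, 78.1, 115 and 48.3 CPM in shCTR. Zbp1, a sensor of left-handed nucleic acid that can trigger necroptosis, had 2.74, 44.3 and 2.47 CPM in shCBX8, 5.16, 21.4 and 11.2 CPM in shCBX7 and 10.7, 18.2, 13.1 and 2.85 CPM in shCTR. Zbp1 in shCBX8 2 was above every other library, whereas Ddx58 and Ifih1 in that library were inside the shCTR range. The other 2 of this group, Dhx58 (a regulator of RIG-I signalling) and Eif2ak2 (PKR, which halts translation), had log2 fold changes of -0.83 and -0.28 against shCTR, and none of the 5 was called.

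Isg15, a ubiquitin-like protein attached to newly made proteins, had 12.4, 93.5 and 9.42 CPM in shCBX8 1, 2 and 6, 46.6, 88.1 and 75.5 CPM in shCBX7 1, 2 and 5, and 53.6, 53, 86 and 39.8 CPM in shCTR 1, 2, 5 and 6. Usp18, which removes ISG15 and dampens the receptor, had 27.4, 155 and 23.7 CPM in shCBX8, 94.7, 157 and 149 CPM in shCBX7 and 124, 84.9, 188 and 65.4 CPM in shCTR. In both, shCBX8 1 and 6 were below all other libraries. Trim25, a ubiquitin ligase, varied less, at 46.3, 101 and 43.4 CPM in shCBX8, 82.8, 88.1 and 111 CPM in shCBX7 and 85.5, 90.2, 104 and 83.5 CPM in shCTR, with shCBX8 1 and 6 again the lowest. The ISG15 group had 0 of 3 genes called and the dynamin-like and guanylate-binding GTPases 1 of 4, namely Gbp2. Mx1, an antiviral GTPase whose gene is defective in most laboratory mouse strains, had 2.89, 17 and 2.34 CPM in shCBX8, 7.92, 6.18 and 12.1 CPM in shCBX7 and 7.72, 17, 9.79 and 8.87 CPM in shCTR. The ADP-ribosylation genes Parp9, Dtx3l and Parp14 had log2 fold changes between -0.37 and -0.29 against shCTR, and none of the 3 was called. Of the other 4 genes, Ifi35 was nearly level (log2 fold change -0.01), Ifi44 was -0.17, Xaf1 -0.68 and Rtp4, a receptor-transporting protein, -1.01, none past the threshold.

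**Figure D4:**
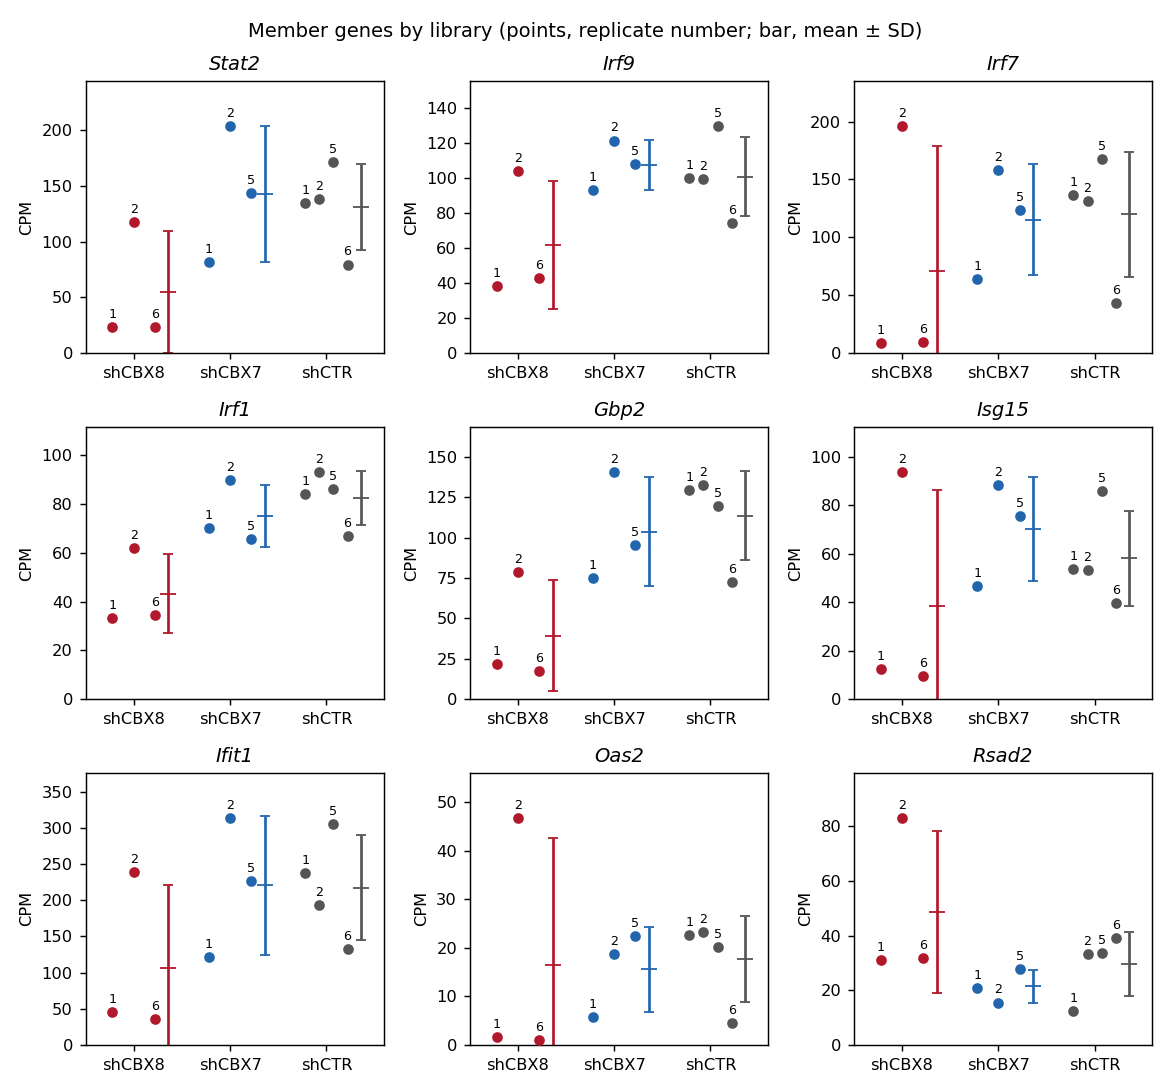
CPM (vertical, linear from 0) of 9 of the 36 genes in shCBX8, shCBX7 and shCTR (horizontal), with 1 point per library numbered by its replicate label and the mean ± SD beside each group, cut at 0 where the SD exceeds the mean. Points 1 and 6 of shCBX8 lie low in 8 panels, with point 2 above them, while in the Rsad2 panel they lie within the shCTR range.

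No interferon-stimulated gene was called with the hairpin against Cbx7. In shCBX7 against shCTR, 0 of the 36 genes passed edgeR's test, as did 0% of all genes. At an unadjusted p under 0.05, 0 of the 36 and 975 of all genes (5.85%) passed, and DESeq2 called 0 of the 36 and 91 of all genes. For none of the 36 did the shCBX7 libraries lie wholly below (3.73% of all genes) or wholly above (1.70%) the shCTR libraries. The median log2 fold change was -0.01 in the 36 genes and 8.9e-05 over all genes, with 18 genes above and 18 below 0. Nearest to a call in the upward direction were Isg15 (0.27, 95% interval -1.30 to 1.84), Ifi35 (0.10, -0.50 to 0.70) and Rtp4 (0.23, -1.16 to 1.63). In the downward direction they were Isg20 (-0.45, -1.23 to 0.33), Rsad2 (-0.47, -1.49 to 0.56) and Cmpk2 (-0.31, -1.30 to 0.68). Stat2, Irf9, Irf7 and Irf1 had log2 fold changes of 0.12, 0.09, -0.05 and -0.13. The adjusted p of these 10 genes lay between 0.929 and 0.997. The half-width of the interval had a median of 1.34 and ran from 0.48 to 2.61 over the 36, so the levels are not shown to be equal. Cbx7 RNA itself was not lowered beyond the spread of the libraries.

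Between the shCBX8 and shCBX7 groups, Irf1 was the only gene of the 36 called. In shCBX8 against shCBX7, 1 of the 36 genes fell and none rose, where 13.3% of all genes fell and 15.3% rose. The count of 1 in 36 is no more than the background. Irf1 had 43.3 ± 16.3 CPM in shCBX8 and 75.3 ± 12.8 CPM in shCBX7 (SD, n = 3 each), a log2 fold change of -0.80 (SE 0.25, edgeR adjusted p = 0.0399). This call ended in 9 of 22 alternative settings. Among them were the edgeR fits without shCBX8 1 or 6 (adjusted p = 0.140 and 0.141), without shCBX7 1 or 2 (0.0663 and 0.101) and without shCTR 5 (0.0580). The median over the 36 genes was -0.60, with 29 below 0. With DESeq2, 3 fell (17.9% of all genes). Stat2 had a log2 fold change of -1.38 (adjusted p = 0.127), Irf9 -0.80 (0.119) and Irf7 -0.69 (0.646). Without shCBX8 2, 26 of the 36 fell (17.5% of all genes) with a median of -1.62, and without shCBX8 1 or shCBX8 6 none did (4.62 and 4.53%). As above, shCBX8 2 was the highest of its group for 35 of the 36, so its removal lowers the shCBX8 level by construction. The comparisons share their libraries, so a gene's values in them are not independent.

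Upstream of these genes stand the interferon receptors and their kinases. Of 9 receptor and kinase genes tested, 2 fell and 1 rose in shCBX8 against shCTR, where 15.9% of all genes fell and 17.0% rose. The counts are near those shares. Ifnar1, a chain of the receptor for alpha and beta interferons, had 60.1, 74.2 and 58.3 CPM in shCBX8 1, 2 and 6, 133, 122 and 125 CPM in shCBX7 1, 2 and 5, and 110.2, 161, 117 and 126 CPM in shCTR 1, 2, 5 and 6. Every shCBX8 library, including shCBX8 2, was below every other library. Its log2 fold change was -1.0 against shCTR (SE 0.15, edgeR adjusted p = 0.00309) and -0.98 against shCBX7 (adjusted p = 0.00487), and the call against shCTR held in all 22 alternative settings. Ifnar2, the partner chain, had 21.9, 28 and 21 CPM in shCBX8, 27.9, 47.2 and 30.2 CPM in shCBX7 and 44.3, 77.3, 34.8 and 25.7 CPM in shCTR, and missed the threshold against shCTR (-0.94, adjusted p = 0.0675), which it passed with the replicate block (0.0220).

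Ifngr1, the ligand-binding chain of the interferon gamma receptor, fell to 35.3, 64.6 and 38.9 CPM in shCBX8, with 96.6, 153 and 84.1 CPM in shCBX7, against 78.4, 164, 86.8 and 104 CPM in shCTR. Its log2 fold change was -1.23 (adjusted p = 0.0223), and the call ended without shCBX8 1 or 6 (0.0935 and 0.0905). Its partner Ifngr2 fell against shCBX7 (-1.25, adjusted p = 0.0153) and not past the threshold against shCTR (-0.70, adjusted p = 0.0759). Ifnlr1, the specific chain of the interferon lambda receptor, which is known mainly from epithelia, rose. It had 7.77, 4.48 and 10.6 CPM in shCBX8 1, 2 and 6, 1.18, 0.802 and 3.23 CPM in shCBX7 and 2.61, 0.852, 1.78 and 3.17 CPM in shCTR, a log2 fold change of 1.85 (adjusted p = 0.0335). That call ended without shCBX8 1 or 6 (0.0896 and 0.123) and without shCTR 1, 2 or 5 (0.0608 to 0.0764). Epithelial marker RNA was also higher in shCBX8, as given above, and its part in this result was not tested.

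Feedback inhibitors limit the response once it has started. Of 5 negative regulators, 2 fell and none rose in shCBX8 against shCTR, where 15.9% of all genes fell and 17.0% rose, and 1 of the 2 calls ended in most other settings. Socs1, which blocks the receptor kinases, had 1.47, 2.92 and 1.87 CPM in shCBX8 1, 2 and 6, 4.0, 5.14 and 6.28 CPM in shCBX7 1, 2 and 5, and 4.75, 7.81, 6.05 and 4.26 CPM in shCTR 1, 2, 5 and 6, with no overlap between shCBX8 and the other groups. It fell by 1.46 on the log2 scale against shCTR (adjusted p = 0.0114), a call that ended without shCBX8 1 or 6 (0.0541 and 0.0542). Ptpn2, a phosphatase that acts on Janus kinases, had a small decrease (-0.39, adjusted p = 0.0439), a call that ended in 16 of 22 alternative settings. Among these were leaving out any 1 of the 3 shCBX8 libraries (0.0808 to 0.137), library size scaling (0.247), no low-count filter (0.147), unstranded counts (0.0651) and the replicate block (0.0790). Socs3 was at -1.81 (adjusted p = 0.0708, or 0.00693 with the block) and Pias1 at -0.41 (adjusted p = 0.0787).

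Of 14 adaptors and sensors of nucleic acid outside the 36, 13 were tested and 1 was called in shCBX8 against shCTR, a smaller share than the 32.9% of all genes called in either direction. Tlr3, the endosomal receptor for double-stranded RNA, rose to 40.3, 29.6 and 36.2 CPM in shCBX8 1, 2 and 6, with 10.1, 11.4 and 17.7 CPM in shCBX7 1, 2 and 5, against 13.9, 17.2, 17.7 and 14 CPM in shCTR 1, 2, 5 and 6. All 3 shCBX8 libraries were above the other 7. The log2 fold change was 1.17 (SE 0.21, edgeR adjusted p = 0.0052), and the call held in all 22 alternative settings. Tbk1, the kinase downstream of several sensors, was at -0.25 (adjusted p = 0.0675), Irf5 at -1.08 (0.142) and Cgas at -0.71 (0.145), none past the threshold. Of these 3 lists, none of the genes passed in shCBX7 against shCTR.

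**Figure D5:**
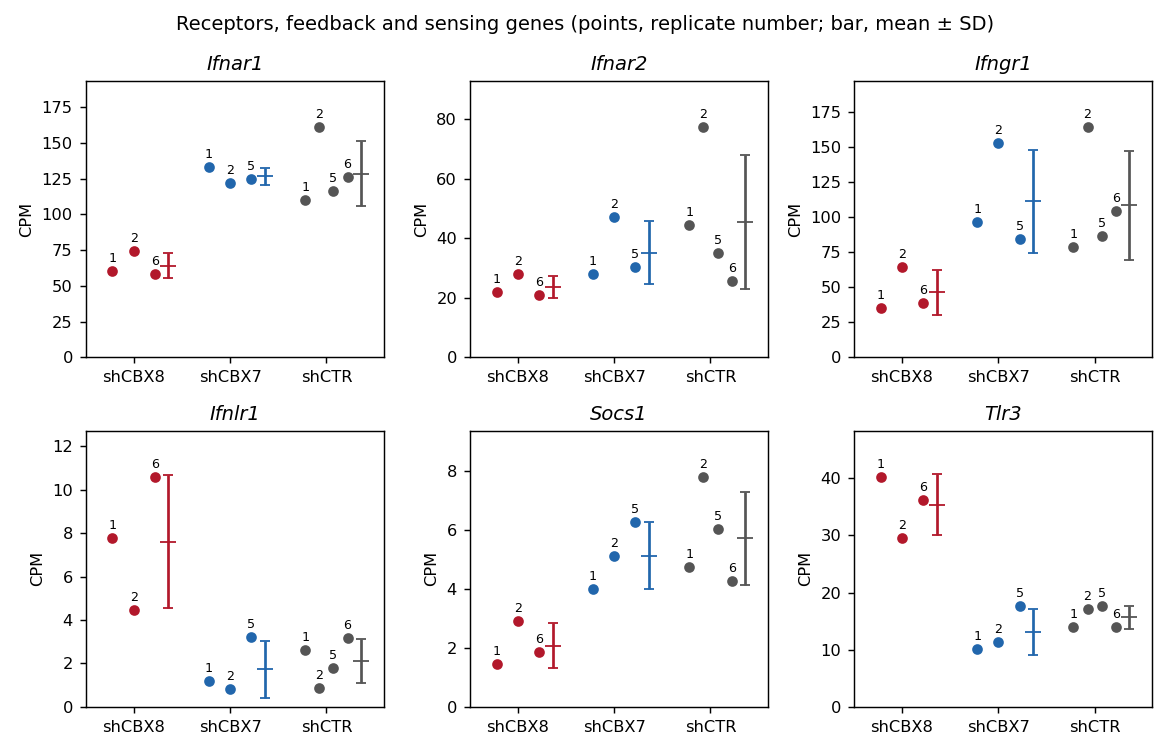
CPM (vertical, linear from 0) of 5 receptor and feedback genes and Tlr3 in shCBX8, shCBX7 and shCTR (horizontal), with 1 point per library numbered by its replicate label and the mean ± SD beside each group. For Ifnar1 the 3 shCBX8 points lie at 58.3 to 74.2 CPM, below all others, and for Tlr3 at 29.6 to 40.3 CPM, above all others.

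A wider list of interferon-induced genes outside the 36 was counted in the same way. Of 48 tested, 3 fell and none rose in shCBX8 against shCTR, with a median log2 fold change of -0.66 against -0.01 over all genes. The 3 are a smaller share than the 15.9% of all genes that fell. With the replicate block, 17 of the 48 fell, a larger share than the 17.8% of all genes that fell. In that fit 1, Nmi, rose, where 18.4% of all genes rose. Whether this list fell more often than the background thus depended on the block. Ifitm2, a relative of Ifitm3 in the same gene cluster, had 88.8, 181 and 72 CPM in shCBX8 1, 2 and 6, 312, 479 and 278 CPM in shCBX7 and 460.2, 811, 344 and 269.6 CPM in shCTR, with all 3 shCBX8 libraries below the rest (log2 fold change -2.05, adjusted p = 0.0112). Tap1 and Tap2 form the transporter that loads peptides for display on class I molecules. Their log2 fold changes were -1.10 (adjusted p = 0.0415) and -1.34 (adjusted p = 0.0264). Each of the 3 calls ended without shCBX8 1 or 6 (0.0516 to 0.150), that of Tap1 in 9 of 22 settings in all, also without shCTR 1, 2 or 5, and that of Tap2 without shCTR 2. Gbp7 was at -1.81 (adjusted p = 0.0684, or 0.0246 with the block).

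Counted RNA of the interferon genes listed was close to the detection limit. Of the alpha family the list held only Ifna1, Ifna2, Ifna4, Ifna5 and Ifna13. Reads that map to several places were left out of these counts too. None of the 12 interferon genes listed passed the low-count filter. Libraries shCBX8 1, 2 and 6 held 10, 11 and 13 counts over all of them. Libraries shCBX7 1, 2 and 5 held 11, 4 and 12 counts, and shCTR 1, 2, 5 and 6 held 14, 12, 22 and 9. As CPM, the sums were 0.210, 0.331 and 0.280 in shCBX8, 0.232, 0.119 and 0.285 in shCBX7 and 0.554, 0.601, 0.783 and 0.259 in shCTR. With 10, 11 and 13 counts, the shCBX8 libraries cannot be ranked. The next 3 genes were chosen after their values were seen, and none was tested. Ifnb1, the interferon beta gene, had 1, 6 and 0 counts in shCBX8 1, 2 and 6, 4, 0 and 5 counts in shCBX7 and 2, 1, 5 and 2 counts in shCTR. At 6 counts in shCBX8 2 and 5 in shCTR 5, no library can be called the highest. Ifne had 3, 2 and 7 counts in shCBX8 and 0 in every shCTR library, while Ifnz had 1, 1 and 0 counts in shCBX8 and 3, 5, 8 and 4 in shCTR.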

How the data were processed

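Counts of reads per Ensembl gene were deposited by the authors for 10 stranded total RNA libraries, each made from 500 ng of RNA per the labels' protocols. The tools named are bcl2fastq 2.17, Trim Galore 0.4.3 and STAR 2.5.0a, and the mm10 build, per the submitters' processing notes. The sources used here do not name the gene annotation. The deposited count for the reverse strand was used, since the forward strand held 3.42 to 10.4% of stranded counts. That share was 3.57, 7.75 and 3.83% in shCBX8 1, 2 and 6, so library 2 again stood apart. It was 3.42 to 3.96% in shCBX7 and 6.34 to 10.4% in shCTR. Its part in the split within shCBX8 was not tested. Totals that name no gene (unmapped, multimapped, outside any gene or ambiguous) were left out. They held 35.6 to 67.5% of all reads in that column, gene counts included. Symbols came from GENCODE M21 (GRCm38), which matched 40217 of 41091 identifiers.

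Genes were filtered with filterByExpr (minimum count of 10) and scaled by trimmed mean of M values. edgeR 4.0.16 (R 4.3.3) fitted its quasi-likelihood test to the 10 libraries together, with no term but group, and p-values were adjusted over all 16669 genes with a threshold of 0.05. DESeq2 1.42.0, other scalings, filters, strands and left-out libraries were alternatives. The fit was tried on simulated counts with a smaller spread between libraries than the real ones, no odd library and no pairing. That run checks the code and cannot show how the test behaves on these data. No 2 libraries of a group agreed within sampling noise, so none was counted as a copy of another, which does not show that they came from separate cultures. Replicate numbers come from the titles, and no label says what they mark. Pairing was taken as present where 3 or more same-numbered pairs all had correlated deviations from their group means (r over 0.1). In shCBX8 and shCTR the 3 pairs had r = 0.12 to 0.29, so pairing was taken as present by this rule. Of 9 differently numbered pairs, 3 were also over 0.1 (-0.31 to 0.18). Over the interferon-stimulated genes alone, the 3 same-numbered pairs had r = -0.39, 0.13 and 0.70, in label order. The counts given first for this comparison nevertheless come from the fit without a block. With the number as a block, 5 members fell and not 2, and 17 of 48 in the wider list and not 3. For the wider list the block moved the share that fell from below the background to above it. For this comparison, values with the block are given where they change a call. The 3 pairs of shCBX7 and shCTR had r = -0.07 to 0.75, and shCBX8 and shCBX7 share only 2 numbers. The members and lists were chosen with earlier results of these data known. Genes named in a comparison were those called, or otherwise the 3 with the smallest p in each direction, plus Stat2, Irf9, Irf7 and Irf1, and up to 4 per pathway list. Other members are named to describe their role and level.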

Additional observations from a re-analysis of the deposited data

Results flagged for a closer look

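Of 36 control groups checked, 1 for each gene, 2 held a library far from the other 3, by Dixon's test of the gap to the nearest library over the whole range. Chance gives about 1 in 20. Ifit3 in shCTR 5 had 196 CPM, against 78.2 to 96.3 CPM in the other shCTR libraries, a gap of 0.846 of the range. Oas2 in shCTR 6 had 4.46 CPM, against 20.2 to 23.2 CPM in the other shCTR libraries, a gap of 0.837 of the range. Groups of 3 libraries were not checked in this way.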

How the results depend on the processing

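The count of members that fell in shCBX8 against shCTR, 2 as reported, was 1 with library size scaling, with unstranded counts or with only the 2 groups compared, 3 with forward-strand counts subtracted or the 10 most abundant genes left out, 4 with DESeq2, and 0 without shCTR 1 and 2 together or at an adjusted p under 0.01. Against shCBX7, 1 as reported, it was 3 with DESeq2 and 0 with library size scaling, without shCTR 1 and 2, with only the 2 groups compared or at an adjusted p under 0.01. Leaving out each library in turn gave 0 to 28 against shCTR and 0 to 26 against shCBX7, with medians of -1.72 to -0.20 and -1.62 to -0.19. Without shCTR 1 and 2, the calls of Irf1, Gbp2, Ifngr1, Ifnlr1, Socs1, Ptpn2, Ifitm2, Tap1 and Tap2 in shCBX8 against shCTR ended (adjusted p = 0.0508 to 0.177), and with library size scaling those of Gbp2, Ptpn2 and Tap1 did (0.0564 to 0.247). No member rose in shCBX8 in any of these settings. Library size scaling moved the median of all genes to 0.17 in shCBX8 against shCTR, with that of the members at -0.43.

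With the number as a replicate block, 5 members fell in shCBX8 against shCTR and 2 against shCBX7, where 17.8% and 13.5% of all genes fell. Against shCTR the block added the calls of Stat2, Ifit2, Ifitm3, Ifnar2, Socs3 and Gbp7 and ended that of Ptpn2, and the calls of the other genes named kept their side of the threshold. In shCBX7 against shCTR, where nothing was called, the block turned Isg15 to -0.15, Ifi35 to -0.023, Rtp4 to -0.13, Stat2 to -0.27 and Irf9 to -0.056. Without shCTR 1 and 2, Ifi35 was -0.011 and Irf7 0.13. Irf7 was 0.013 with no low-count filter and 0.045 with unstranded counts. Leaving out each library gave Ifi35 -0.00062 to 0.29, Rtp4 -0.00074 to 0.48, Stat2 -0.20 to 0.42, Irf9 -0.028 to 0.23 and Irf7 -0.33 to 0.26. The cause of these changes was not tested. The number of libraries limits precision. Over all genes, same-group libraries differed beyond counting error, with a chi-square per degree of freedom of 28.1 to 445. The part of counting error was not measured for single members.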
